A study of Mus musculus with 70 samples.

Results

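The genes described here belong to the gene families of voltage-gated sodium and calcium channels and their auxiliary subunits. They were chosen by symbol alone, as the genes named Scn followed by a number and a or b, and those whose names begin with Cacna, Cacnb or Cacng. The rule found 39 of the 22835 genes in the RNA-seq table, 13 of them sodium channel genes and 26 calcium channel genes. Scn2a1, a further sodium channel pore gene, did not match the rule and is not among them. Of the 39 genes, 30 lay above 1 CPM (a gene's reads scaled to the same library total in every library) in all 18 libraries and were tested. A further 5 (Cacna2d4, Cacng6, Cacng8, Scn10a and Scn1a) passed 1 CPM in 4 to 17 libraries, and 4 (Cacna1s, Cacng1, Cacng3 and Scn4b) in fewer.

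The series asked how thyroid hormone (T3, triiodothyronine) and its receptor TRβ, the product of Thrb, control the pituitary gland of mice, and 18 of its 70 samples are RNA-seq libraries. Adult C57BL/6J males aged 2 to 4 months were either wild type or Thrb-deficient (Thrb-KO), and each library came from a pool of 3 whole pituitaries. Every mouse of the RNA-seq, controls included, received the antithyroid drug methimazole (MMI, 0.05%) with potassium perchlorate (1%) in the drinking water for 4 to 5 weeks, which made the hypothyroid groups. The hyperthyroid groups also received T3 (0.5 µg/ml) in the last 1 week. The groups were hypothyroid wild type (4 libraries), hyperthyroid wild type (4), hypothyroid Thrb-KO (5) and hyperthyroid Thrb-KO (5), and no untreated mice were in the RNA-seq. Binding sites of TRβ came from pituitary and cerebral cortex of untreated HAB;BirA males, with BirA males as controls. In HAB;BirA mice, receptors expressed from the Thrb gene carry a tag that BirA ligase biotinylates. T3-regulated open chromatin came from ATAC-seq of nuclei purified from pituitaries of hypothyroid and hyperthyroid Rosa26Sun1-GFP; Thrb2-Cre males, treated in the same way as the RNA-seq mice. It thus covers only cells in which the Cre at Thrb was active. The mice of both assays were also 2 to 4 months old, but on mixed strain backgrounds.

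Voltage-gated channels open when the cell membrane depolarizes. Sodium channels carry the fast upstroke of the action potential, and calcium channels let in the calcium that triggers hormone release, so that anterior pituitary cells secrete in part through their own electrical activity. Each channel has 1 large pore-forming subunit, encoded by an Scn gene ending in a or by a Cacna1 gene, and auxiliary subunits that set its gating and its number at the cell surface. L-type channels give long-lasting currents, P/Q-, N- and R-type channels serve transmitter and hormone release, and T-type channels open near the resting potential. Several Cacng genes encode TARPs, which carry AMPA-type glutamate receptors to the membrane.

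The libraries held 21453548 to 55273749 reads, recovered as whole reads from the CPM values. Replicate correlations were 0.915 to 0.997, and hyperthyroid wild type replicate 3 stood apart most, with a TMM scaling factor of 0.832. Replicates 1 and 2 of every group also differed from replicates 3 to 5. Values within each of these library sets are therefore given beside the pooled ones where a tested gene lost its call there. Calls gained in 1 set only are listed with the dependence on processing. The Thrb transcript did not check the genotype label. It ranged from 239 to 297 CPM in hypothyroid wild type and from 239 to 295 CPM in hypothyroid Thrb-KO, and the part of the gene removed by the mutation is not given in the sources used here. With T3 it ranged from 72.4 to 124 CPM in wild type and from 228 to 301 CPM in Thrb-KO. Of 10 skeletal muscle markers, the summed level was 1.84 to 3.45 CPM over all 18 libraries, with Tnnc2 at or near 0. In whole pituitaries, fewer cells of a type and less RNA per cell cannot be told apart.

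Levels of different genes are compared per kilobase of the longest protein-coding transcript, as the mean CPM per kb over the 18 libraries. The highest was Cacna2d1, an alpha2-delta subunit that binds gabapentin, at 31.0 CPM per kb. Next came the cytoplasmic beta subunit gene Cacnb3 at 27.7 CPM per kb and the L-type pore gene Cacna1d at 20.5 CPM per kb. Among the 39 genes, Scn8a led the sodium channel pore genes at 11.0 CPM per kb. Scn3a followed at 8.45 and Scn7a at 7.89 CPM per kb. In Scn3a, 8.53% of the 50-base words of its transcripts also occur in transcripts of another gene, the highest share among the 39, so part of its reads could have been split among related genes. Cacna1h led the T-type genes at 6.98 CPM per kb, Cacna1a the P/Q-, N- and R-type genes at 5.24 and Cacng7, a TARP, the gamma family at 10.0 CPM per kb. The muscle L-type gene Cacna1s was last, at 0.0298 CPM per kb.

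The order at the top changed with the condition. In hypothyroid wild type Cacna2d1 stood at 28.9 and Cacna1d at 13.6 CPM per kb, while in hyperthyroid wild type Cacna2d1 stood at 19.8, Cacna1d at 27.1 and Cacnb3 at 36.9 CPM per kb. Cacna2d1 varied widely within groups. It measured 247, 290, 143 and 183 CPM in hypothyroid wild type and 186, 206, 71.9 and 129 CPM in hyperthyroid wild type, and these ranges overlapped. Its T3 difference of −0.60 ± 0.56 on the log2(CPM + 1) scale (95% interval) did not pass the test (adjusted p = 0.142). With the replicate number as a block it was called in this comparison in limma (adjusted p = 0.00726). It was then also called in Thrb-KO against wild type, in hypothyroid (0.59, adjusted p = 0.014) and hyperthyroid mice (0.82, adjusted p = 0.000971).

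TRβ-HAB sites were listed within 20 kb of 19 of the 39 genes in pituitary (48.7%), against 41.3% of the tested genes that could be placed on the genome. The channel genes are long, with a median gene body of 95.6 kb against 25.0 kb. Per megabase searched they held 5.64 sites against 6.51 for the tested genes. Not all 39 genes were among those tested. Of all 21695 genes placed, tested or not, 30.5% had a site, with 5.38 sites per megabase and a median gene body of 16.2 kb. The density of sites at channel genes thus lay below that of the tested genes and above that of all genes placed. In cerebral cortex 14 of the 39 genes had a site (35.9%, against 34.9% of the tested genes and 26.0% of all genes placed). Of the 41 pituitary sites at channel genes, 2 overlapped a cortex site (4.88%, against 11.1% of all pituitary sites). The 2 shared sites lay beyond the 3′ ends of Cacna1a and Cacna2d2. T3-regulated ATAC peaks lay within 20 kb of 6 genes (15.4%), namely Cacna1c, Cacna1d, Cacna2d1, Cacnb2, Cacng3 and Scn4a. The share was 7.79% of the tested genes and 5.95% of all genes placed. Per megabase searched the channel genes held 0.825 peaks, against 0.913 for the tested genes and 0.805 for all genes placed. The list of these peaks gives no direction of the change with T3.

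Cacna1d held the most pituitary sites, 8, all inside the gene. The strongest, at chr14:31017751-31018550 (mm9), lay in an intron 286 kb from the gene start. It held 130 HAB;BirA reads against 8 reads of the BirA control, and overlapped the T3-regulated ATAC peak chr14:31017809-31018069. The pituitary sites of Cacna1c, Cacna2d1 and Cacnb2 that lay in introns at 299, 303 and 231 kb from the gene start also overlapped an ATAC peak. Scn10a and Scn11a, pore genes known from sensory neurons, lie side by side on chromosome 9 with a gap of 59.4 kb. Scn10a held 2 pituitary sites inside the gene, the stronger one at chr9:119596801-119597150 over a coding exon (37 reads against 3). Scn11a had no site in any of the 3 lists.

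**Figure D1:**
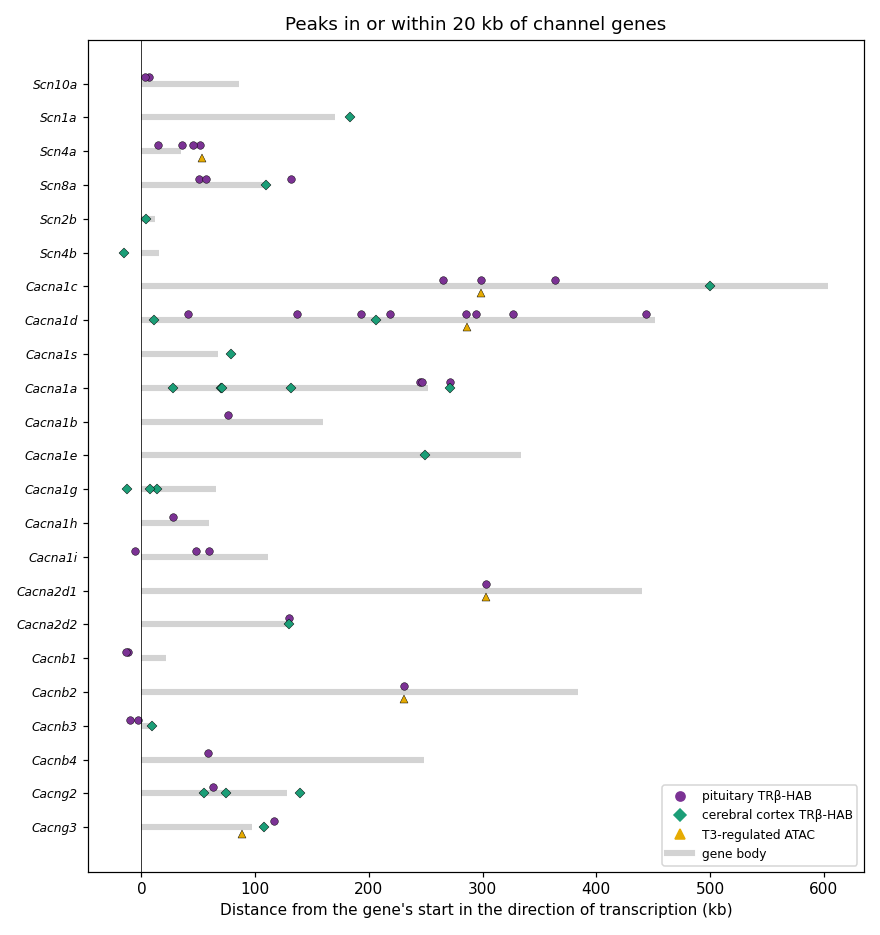
Position of the listed sites at 23 channel genes that have one within 20 kb, as distance from the gene start in kb in the direction of transcription, with the gene body as a grey bar and one mark per peak of each list. Cacna1d holds 8 pituitary sites, and its strongest lies 286 kb from the start, where an ATAC peak overlaps it.

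Scn4a, the pore gene of skeletal muscle, lies 16.7 kb from Gh, the growth hormone gene, with Cd79b between them. The strongest site there, chr11:106177901-106178650, held 75 HAB;BirA reads against 1 control read and lay 1256 bp from the end of Scn4a, 1825 bp from Cd79b and 14722 bp from Gh. Of the other 3 pituitary sites within 20 kb of Scn4a, 1 lay on Gh itself (46 reads against 6), 1 between Gh and Cd79b (22 against 1) and only 1 inside Scn4a, in an intron (13 against 2). The ATAC peak counted for Scn4a overlaps Gh and lies 18167 bp from the Scn4a gene body. Which gene a site in this stretch acts on was not tested.

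Thyroid hormone receptors are known to bind 2 copies of AGGTCA in the same direction with a spacer of 4 bases (DR4). Such repeats were sought on both strands with at most 2 mismatches over the 12 compared bases. They occurred in 9 of the 41 pituitary sites at channel genes (21.95%, against 20.94% of all 8051 pituitary sites and 3.577% of windows 10 kb away). In cortex 1 of 22 sites had one (against 9.295% of all), and of the ATAC peaks 2 of 6 (against 30.91%). The repeats at the genes described most below are shown 5′ to 3′ with the 2 copies in capitals and the spacer in lower case. Positions count from 1 at the 5′ end of the repeat.
Cacna1d, strongest site: AGGCCAaaccAGGTCA
Cacna1d, second site: AGGGCAcatgAGGCCA
Cacna1c: AGGTGGtttaAGGTCA
Cacnb3: GGGTCAgctcAGGTCC
Scn4a-Gh interval: ATGTCAcctaAGGTCA
Scn10a: AGATCAgttcGGGTCA

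The repeat of the strongest Cacna1d site, chr14:31017976-31017991 on the minus strand, differs from the search sequence by T4C alone and lies in both the TRβ-HAB site and the ATAC peak. The second Cacna1d repeat, chr14:30977557-30977572 on the plus strand, carries T4G and T14C. The Cacna1c repeat, chr6:118847294-118847309 on the minus strand, carries C5G and A6G and also lies in both kinds of peak. At Cacnb3 the repeat lies upstream of the gene at chr15:98459622-98459637, on the minus strand, with A1G and A16C. The repeat near the end of Scn4a, chr11:106177984-106177999 on the plus strand, carries G2T alone. That of Scn10a, chr9:119597013-119597028, is on the plus strand and carries G3A and A11G. Cacnb1 and Cacnb4 each held a pituitary repeat as well. A match describes these letters and does not show which of them is bound.

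In wild type, T3 changed 7 of the 30 tested channel genes, 4 upward and 3 downward. A call needed an adjusted p under 0.05 (limma, Benjamini-Hochberg over all 13145 genes tested) with a size of 1.5-fold or more, and 9.46% of those genes were called (3.87% higher, 5.59% lower). The risers were the P/Q-type pore gene Cacna1a, the L-type pore gene Cacna1d and the sodium channel pore genes Scn11a and Scn4a. The genes that fell were the sodium channel beta subunits Scn3b and Scn2b and the TARP gene Cacng5. With CPM scaled by TMM factors 674 genes were called higher and 539 lower, against 509 and 735 without, and the 7 channel genes kept their calls. The median size of the T3 difference was 0.32 on the log2 scale over the 30 genes and 0.16 over all genes tested. Without hyperthyroid wild type replicate 3 the count was 10, with Cacna1e, Cacna1i and Cacnb3 added to the same 7. Over all genes tested 1334 were then called.

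Cacna1a measured 36.2, 37.2, 28.5 and 28.0 CPM in hypothyroid wild type and 69.9, 72.0, 57.4 and 63.7 CPM in hyperthyroid wild type. Every hyperthyroid library lay above every hypothyroid one. The log2(CPM + 1) difference was 1.00 ± 0.22 (95% interval, here and below), with an adjusted p of 1.4e-06 in limma. In Thrb-KO the levels were 34.8, 37.0, 32.5, 30.2 and 29.5 CPM without T3 and 36.8, 40.7, 39.2, 34.6 and 38.6 CPM with it, which overlap. Of the 30 tested genes, Cacna1a alone had a T3 difference that was itself called as different between genotypes in limma (−0.79 ± 0.30, adjusted p = 0.0019), where 4.26% of all genes were called (2.48% with a higher and 1.78% with a lower response in Thrb-KO, or 326 and 234 genes, against 252 and 324 with TMM scaling).

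Cacna1d measured 140, 151, 104 and 103 CPM in hypothyroid wild type and 293, 316, 149 and 234 CPM in hyperthyroid wild type. Replicate 3 of the hyperthyroid group reached only the level of the highest hypothyroid libraries, so the groups overlap there. The difference was 0.95 ± 0.38 (adjusted p = 0.000852), and 1.18 without that library. In Thrb-KO the libraries ran from 151 to 196 CPM without T3 and from 184 to 230 CPM with it, a difference of 0.25 ± 0.34 that was not called (adjusted p = 0.93). The difference between genotypes, −0.70 ± 0.52, was not called with CPM as deposited (adjusted p = 0.127). It was called with TMM scaling (−0.77, adjusted p = 0.0407), in edgeR (−0.77, adjusted p = 0.0446) and DESeq2 (−0.78, adjusted p = 0.0115), and without hyperthyroid wild type replicate 3 (−0.92, adjusted p = 0.00332). With the replicate number as a block 3 channel genes were called in this comparison in limma, where 753 of all 13145 genes were called. They were Cacna1a, Cacna1d (adjusted p = 0.00896) and the R-type pore gene Cacna1e (−0.78, adjusted p = 0.0231).

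Cacnb3 belongs with these by its libraries and not by the call. It measured 78.0, 69.8, 67.4 and 64.3 CPM in hypothyroid wild type and 117, 99.1, 83.6 and 117 CPM in hyperthyroid wild type, without overlap. Its difference of 0.56 ± 0.23 (adjusted p = 0.000992) fell short of the 1.5-fold limit. It passed that limit when CPM were scaled by TMM factors (0.66) and in edgeR (0.63) and DESeq2 (0.64).

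Scn4a measured 6.22, 7.26, 4.34 and 3.92 CPM in hypothyroid wild type and 11.1, 11.8, 6.85 and 8.43 CPM in hyperthyroid wild type. Replicate 3 of the hyperthyroid group lay within the hypothyroid range, and the other hyperthyroid libraries lay above it. The difference was 0.72 ± 0.38 (adjusted p = 0.00811). The summed level of 10 skeletal muscle markers was 2.48 to 3.17 CPM in hypothyroid and 1.84 to 3.45 CPM in hyperthyroid wild type. Their part in the level of Scn4a was not tested. Its neighbour Gh rose by 1.03 on the same scale (adjusted p = 0.0017), while Cd79b between them measured 2.54 ± 0.938 and 4.72 ± 2.11 CPM (SD, n = 4 each) and did not pass the test (adjusted p = 0.0519). In Thrb-KO neither Scn4a (0.37) nor Gh (0.50, adjusted p = 0.337) was called.

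Scn11a, known from pain-sensing neurons, measured 2.65, 2.10, 1.77 and 2.28 CPM in hypothyroid wild type and 4.00, 5.28, 2.92 and 5.08 CPM in hyperthyroid wild type, without overlap. The difference was 0.72 ± 0.32 (adjusted p = 0.00227). In replicates 3 to 5 alone it was 0.70 and was no longer called (adjusted p = 0.0527).

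Scn3b, an auxiliary subunit that slows sodium channel inactivation in some cells, measured 11.7, 9.33, 10.6 and 11.1 CPM in hypothyroid wild type and 4.77, 5.85, 4.30 and 4.74 CPM in hyperthyroid wild type, without overlap. It fell by 0.98 ± 0.20 (adjusted p = 4.25e-07). In Thrb-KO it measured 8.99, 8.02, 8.23, 7.95 and 9.15 CPM without T3 and 5.03, 4.90, 5.72, 5.55 and 5.83 CPM with it. These groups did not overlap either, and the difference of −0.56 ± 0.18 (adjusted p = 0.000639) missed only the 1.5-fold limit. It passed that limit with a pseudocount of 0.25 (−0.63), in edgeR (−0.64) and in DESeq2 (−0.64). Of the 12 other settings, 7 left it uncalled.

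Scn2b measured 37.1, 38.0, 27.6 and 36.7 CPM in hypothyroid wild type and 23.0, 21.8, 21.0 and 18.0 CPM in hyperthyroid wild type, without overlap. It fell by 0.70 ± 0.34 (adjusted p = 0.00355). Cacng5 measured 9.56, 8.05, 7.00 and 7.54 CPM in hypothyroid wild type and 4.75, 4.67, 4.01 and 4.76 CPM in hyperthyroid wild type, and fell by 0.70 ± 0.25 (adjusted p = 0.000254). The highest hyperthyroid library of Cacng5 lay below the lowest hypothyroid one. Over 8 neuronal markers the summed level was 732 to 802 CPM in hypothyroid and 280 to 407 CPM in hyperthyroid wild type. In Thrb-KO it was 661 to 691 and 530 to 574 CPM. Of 7 tested, Syt1 (−1.65) and Slc17a6 (−0.82) were the 2 called with T3 in wild type. Snap25 (−0.53) and Nefl (−0.32) fell by less than 1.5-fold. Tubb3 (0.48), Rbfox3 (0.17) and Stmn2 (0.13) differed in the other direction and were not called. The part of these markers in the result was not tested.

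**Figure D2:**
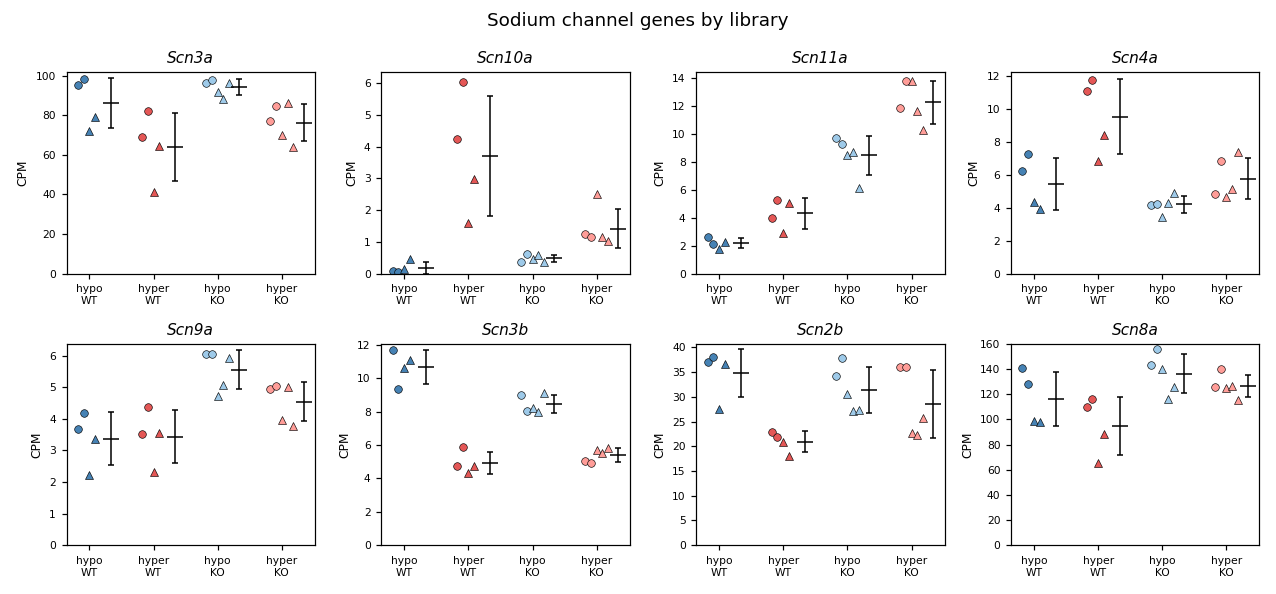
CPM of 8 sodium channel genes in each of the 18 RNA-seq libraries by group, with circles for replicates 1 and 2, triangles for replicates 3 to 5, and bars for the mean ± SD. Scn3b falls from between 9.33 and 11.7 CPM to between 4.30 and 5.85 CPM with T3 in wild type, and every Thrb-KO library of Scn11a lies at or above 6.11 CPM.

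**Figure D3:**
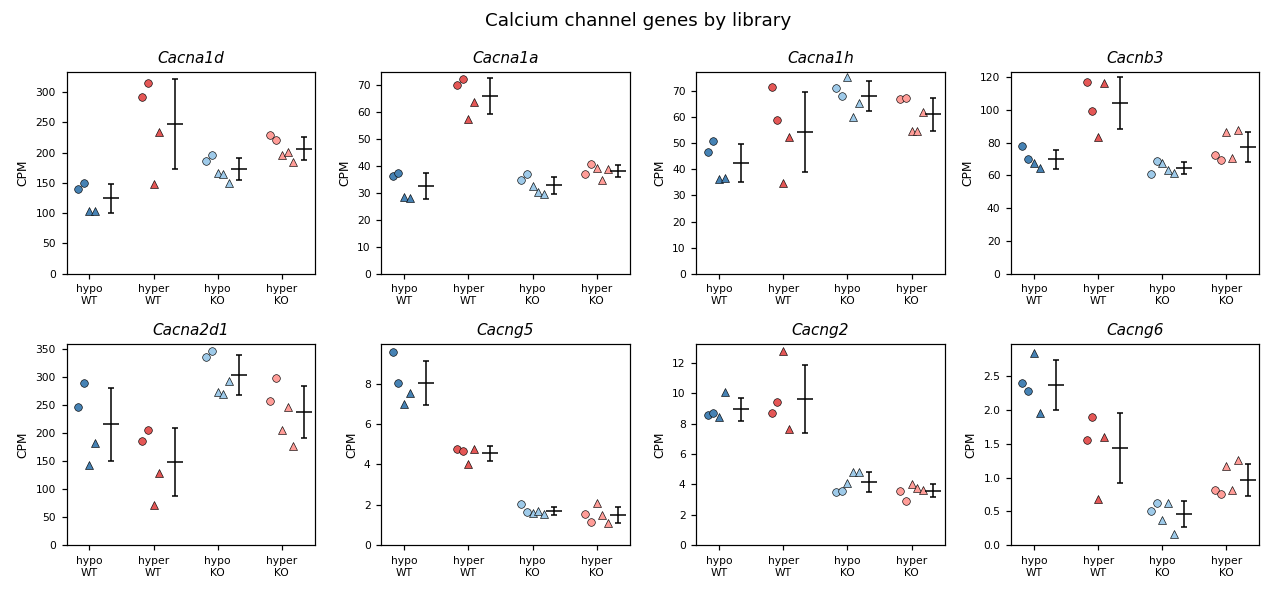
CPM of 8 calcium channel genes in the same 18 libraries, drawn in the same way. Cacna1a separates hyperthyroid wild type (57.4 to 72.0 CPM) from the other 3 groups (28.0 to 40.7 CPM), and Cacng5 is highest in hypothyroid wild type and lowest in both Thrb-KO groups.

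The libraries of hypothyroid and hyperthyroid wild type did not overlap for 7 of the 30 genes (17.4% of all genes tested). With T3, Cacna1a, Cacnb3 and Scn11a lay above (5.66% of all genes) and Cacna2d2, Cacng5, Scn2b and Scn3b below (11.7%). Cacna2d2 differed by only −0.22 (adjusted p = 0.0844). By subfamily, where 9.46% of all genes were called, T3 in wild type changed 2 of 7 tested sodium channel pore genes, 2 of 3 sodium channel beta subunit genes, 1 of 4 genes of the gamma family, 1 of 3 tested L-type genes, 1 of 3 P/Q-, N- and R-type genes, 0 of 3 T-type genes, 0 of 3 alpha2-delta genes and 0 of 4 beta subunit genes. The best-expressed T-type gene, Cacna1h, differed by 0.32, and Scn8a by −0.31 ± 0.33 (adjusted p = 0.206).

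Of the 4 genes that rose with T3 in wild type, 3 had a pituitary TRβ-HAB site within 20 kb (Cacna1a, Cacna1d and Scn4a), beside 74.01% of all genes that rose. None of the 3 that fell had one, beside 37.36% of all that fell, and 14 of the 23 not called did, beside 40.13%. ATAC peaks were near Cacna1d and Scn4a among the 4 risers, beside 32.74% of all genes that rose, and the peak near Scn4a overlaps Gh. None of the 3 that fell had one, beside 10.16% of all that fell. Of the 23 not called 3 did, beside 6.566%. The sites of Cacna1a lay toward its 3′ end, over a coding exon (16 reads against 1), in an intron (39 against 4) and downstream (27 against 1). Scn11a rose with no site in any list.

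In Thrb-KO, T3 changed 0 of the 30 genes by the same rule, where 1.01% of all genes were called (0.411% higher, 0.601% lower). At an unadjusted p under 0.05 in limma there were 6 (8.19% of all genes). EdgeR and DESeq2 each called 1, Scn3b, beside 159 and 178 of all genes tested. The median size of the difference was 0.15 on the log2 scale, against 0.07 over all genes tested. The libraries did not overlap for 4 genes (5.58% of all genes tested), of which Cacnb3 and Scn11a lay above with T3 (2.05%) and Scn3a and Scn3b below (3.53%). Scn11a differed by 0.49 and Cacnb3 by 0.26 (adjusted p = 0.343). A gene called in wild type and not in Thrb-KO is not thereby shown to differ between them, and the direct test of that difference is the one given with Cacna1a and Cacna1d.

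**Figure D4:**
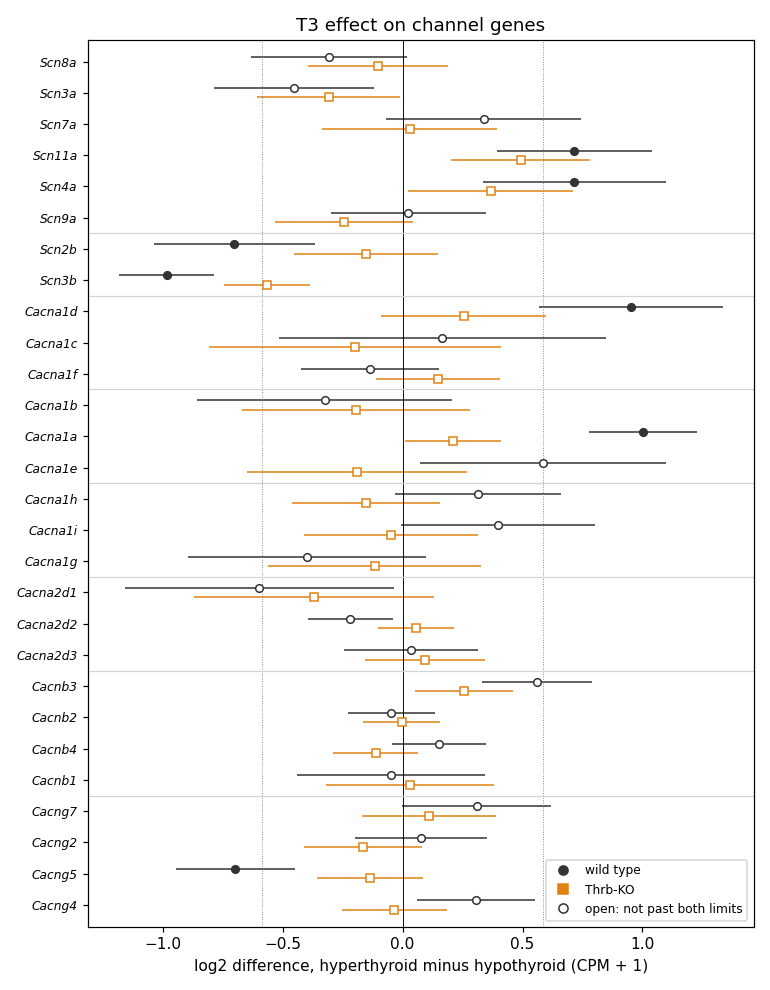
Difference between hyperthyroid and hypothyroid pituitaries for 28 tested channel genes, as log2(CPM + 1) with 95% intervals, in wild type (circles) and Thrb-KO (squares), with called genes filled and dotted lines at 1.5-fold. Cacna1a and Cacna1d lie highest in wild type (1.00 and 0.95) and Scn3b lowest (−0.98), and no Thrb-KO value is filled.

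Loss of Thrb changed 6 of the 30 genes in hypothyroid mice, 3 upward (Scn11a, Cacna1h and Scn9a) and 3 downward, Cacng5 and Cacng2 among them, where 3.02% of all genes were called (1.01% higher, 2.01% lower). In hyperthyroid mice it also changed 6, Scn11a upward and 5 downward, among them Cacng2, Cacng5, Cacna1a and Scn4a, where 4.86% were called (2.54% higher, 2.32% lower). With TMM scaling that split over all genes was 239 higher and 389 lower, against 334 and 305 without, and all 6 channel genes kept their calls. Scn11a, Cacng2 and Cacng5 were called in the same direction in both conditions. The 2 comparisons rest on separate libraries but on 1 estimate of the spread. The genotypes did not overlap for 11 genes in hypothyroid mice (14.3% of all genes), 6 of them higher (7.6%) and 5 lower (6.7%) in Thrb-KO. In hyperthyroid mice they did not overlap for 6 genes (11.3%), 2 higher (7.61%) and 4 lower (3.69%). Of 7 tested neuronal markers, Slc17a6 was higher in Thrb-KO in both conditions (1.93 and 2.81), and Syt1 was lower in hypothyroid (−0.65) and higher in hyperthyroid Thrb-KO (0.59). No other marker of the 7 was called between genotypes. In hypothyroid mice Nefl differed by −0.32, while Tubb3 (0.35), Stmn2 (0.27), Snap25 (0.22) and Rbfox3 (0.02) differed in the other direction. Of 5 tested pituitary transcription factors, Pou1f1 (0.63) and Nr5a1 (0.60) were higher in hyperthyroid Thrb-KO. Their part in the results was not tested.

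Scn11a measured 9.74, 9.29, 8.52, 8.74 and 6.11 CPM in hypothyroid Thrb-KO and 11.8, 13.8, 13.8, 11.6 and 10.3 CPM in hyperthyroid Thrb-KO, above all 8 wild-type libraries, of which the highest was 5.28 CPM. The difference between genotypes was 1.56 ± 0.31 in hypothyroid (adjusted p = 1.41e-06) and 1.34 ± 0.31 in hyperthyroid mice (adjusted p = 4.59e-06).

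Cacng5 measured 2.05, 1.64, 1.59, 1.68 and 1.53 CPM in hypothyroid Thrb-KO and 1.52, 1.14, 2.10, 1.48 and 1.12 CPM in hyperthyroid Thrb-KO. All of these lay below all wild-type libraries, whose lowest was 4.01 CPM. The difference was −1.74 ± 0.23 in hypothyroid mice (adjusted p = 1.68e-08), the largest of any tested channel gene in the 5 comparisons, and −1.18 ± 0.23 in hyperthyroid mice (adjusted p = 9.05e-07). In wild type T3 lowered this gene as well, and in Thrb-KO its T3 difference was −0.14. No site of the 3 lists lay within 20 kb of it.

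Cacng2, which encodes the TARP stargazin, measured 8.56, 8.72, 8.42 and 10.1 CPM in hypothyroid wild type and 3.52, 3.60, 4.07, 4.80 and 4.83 CPM in hypothyroid Thrb-KO. In hyperthyroid mice it measured 8.70, 9.40, 12.8 and 7.62 CPM in wild type and 3.56, 2.92, 4.05, 3.78 and 3.64 CPM in Thrb-KO. The genotypes did not overlap in either condition. The differences were −0.95 ± 0.26 (adjusted p = 6.45e-05) and −1.19 ± 0.26 (adjusted p = 2.78e-06). One pituitary site lay in an intron of Cacng2 (14 reads against 1).

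Cacna1h, a T-type pore gene, measured 46.7, 50.8, 36.3 and 36.6 CPM in hypothyroid wild type and 71.1, 68.0, 75.3, 60.0 and 65.6 CPM in hypothyroid Thrb-KO, without overlap. The difference was 0.67 ± 0.33 (adjusted p = 0.0113), but 0.61 without hypothyroid wild type replicate 4 (adjusted p = 0.0511). Scn9a, a pore gene of sensory neurons, measured 3.68, 4.20, 2.23 and 3.37 CPM in hypothyroid wild type and 6.05, 6.05, 4.72, 5.06 and 5.92 CPM in hypothyroid Thrb-KO. These groups did not overlap, and the difference was 0.60 ± 0.31 (adjusted p = 0.0153). It was no longer called without any one of hypothyroid wild type replicate 3 and hypothyroid Thrb-KO replicates 1, 2 and 5, with values of 0.46 to 0.58. In replicates 1 and 2 alone neither Cacna1h (0.51) nor Scn9a (0.52) was called. In hyperthyroid mice the differences were 0.20 and 0.34 and were not called.

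Cacna1a and Scn4a, which rose with T3 in wild type, were lower in Thrb-KO than in wild type among hyperthyroid mice. Cacna1a differed by −0.77 ± 0.21 in hyperthyroid mice (adjusted p = 3.56e-05) and by 0.02 in hypothyroid mice, and the test of that change is the one already given. Scn4a measured 4.81, 6.85, 4.67, 5.17 and 7.36 CPM in hyperthyroid Thrb-KO, which overlaps hyperthyroid wild type, and differed by −0.63 ± 0.36 (adjusted p = 0.0213). That call was lost in replicates 3 to 5 alone (−0.37, adjusted p = 0.142) and without any one of hyperthyroid wild type replicates 1 and 2 and hyperthyroid Thrb-KO replicates 1, 3 and 4 (−0.60 to −0.53). The Scn4a difference between genotypes in its T3 response was −0.35 and was not called.

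**Figure D5:**
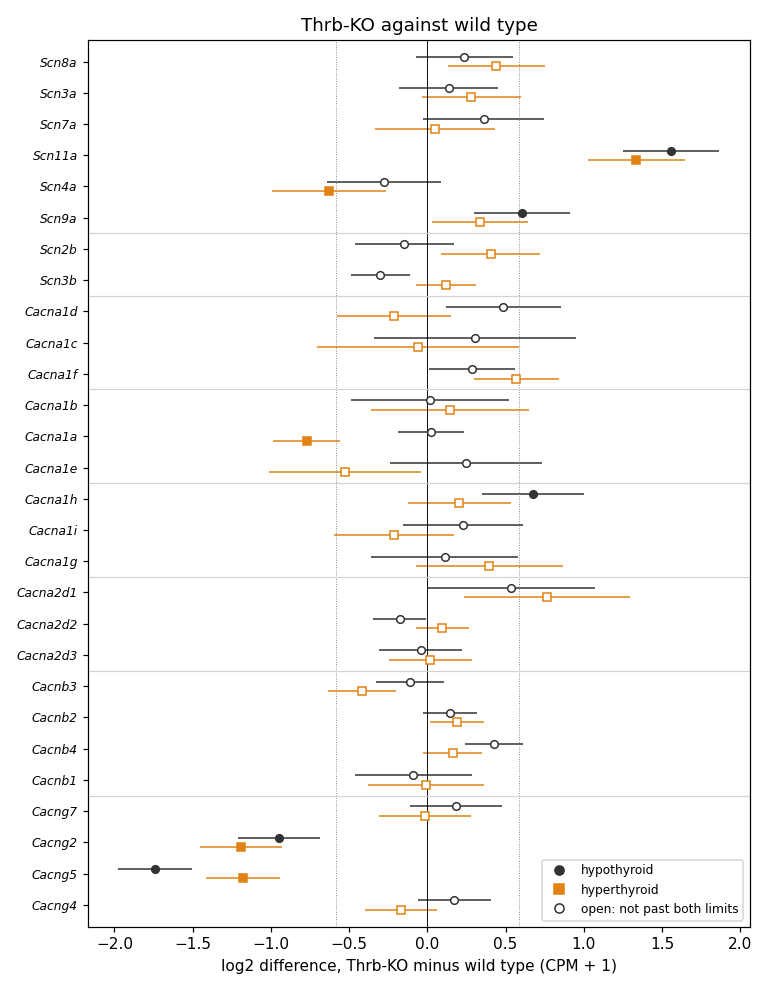
Difference between Thrb-KO and wild type for 28 tested channel genes, as log2(CPM + 1) with 95% intervals, in hypothyroid and in hyperthyroid mice, with called genes filled and dotted lines at 1.5-fold. Scn11a lies highest (1.56 and 1.34), and Cacng5 and Cacng2 lie lowest in both conditions.

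Of the 5 genes called lower in hyperthyroid Thrb-KO, 4 had a pituitary site within 20 kb, Cacna1a, Cacng2 and Scn4a among them, beside 64.24% of all genes called lower there. Of the 3 called higher in hypothyroid Thrb-KO, only Cacna1h had one (15 reads against 1, in an intron), beside 69.23% of all genes called higher.

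The genes of low level came from a fit to all 14472 genes above 1 CPM in at least 4 libraries, and values from a fit with no filter, of all 21461 genes with a read, are given beside the calls. Scn10a passed 1 CPM only in hyperthyroid libraries, and Cacng6 in no hypothyroid Thrb-KO library. Scn10a, a pore gene of pain-sensing neurons, measured 0.0856, 0.0583, 0.161 and 0.471 CPM in hypothyroid wild type, which is 3, 2, 7 and 13 reads. In hyperthyroid wild type it measured 4.23, 6.05, 1.58 and 2.98 CPM, or 188, 220, 39 and 114 reads, without overlap. The log2(CPM + 1) difference was 1.90 ± 0.48 (adjusted p = 5.29e-06, where 10.4% of these genes were called in limma), and 4.37 on the log2 scale in edgeR, which adds no pseudocount of 1 (12.3% called). With no filter the adjusted p in limma was 1.51e-05 (7.11% called). The scale with a pseudocount understates the change at such levels.

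In Thrb-KO, Scn10a measured 0.376, 0.622, 0.452, 0.592 and 0.384 CPM without T3 and 1.25, 1.14, 2.53, 1.17 and 1.03 CPM with it, again without overlap. The difference of 0.68 ± 0.43 was not called in limma (adjusted p = 0.123, 1.33% called), nor with no filter (adjusted p = 0.174). In edgeR it was 1.57 and was called (adjusted p = 0.0334, 1.69% called). That edgeR fit used the filter that Scn10a passed only through hyperthyroid libraries, and edgeR was not run without it. The T3 differences of the genotypes differed by −1.22 ± 0.65 (adjusted p = 0.0198, 5.13% called; −2.80 in edgeR, 5.53% called; adjusted p = 0.0318 with no filter, 3.25% called), but by −0.54 in replicates 3 to 5 alone, which was not called (adjusted p = 0.493). Hyperthyroid Thrb-KO was below hyperthyroid wild type by −0.90 ± 0.46 (adjusted p = 0.00868, 5.65% called; 0.0141 with no filter, 3.82% called), and by −0.36 in replicates 3 to 5 (adjusted p = 0.277). The 2 sites inside Scn10a were given above.

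Cacng6, whose protein is a gamma subunit of muscle and heart calcium channels, measured 2.40, 2.27, 2.85 and 1.96 CPM in hypothyroid wild type and 0.513, 0.622, 0.38, 0.624 and 0.16 CPM in hypothyroid Thrb-KO, without overlap. The difference was −1.21 ± 0.31 (adjusted p = 1.72e-05, 3.54% called), and −2.40 in edgeR (4.98% called). With no filter the adjusted p was 3.07e-05 (2.31% called). With T3 it measured 1.55, 1.90, 0.689 and 1.60 CPM in wild type and 0.815, 0.751, 1.17, 0.82 and 1.26 CPM in Thrb-KO. The T3 differences of the genotypes differed by 0.92 ± 0.43 (adjusted p = 0.00906, or 0.0113 with no filter), but by 0.48 in replicates 1 and 2 alone, which was not called (adjusted p = 0.117).

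Cacng8, a TARP gene, was higher in hyperthyroid Thrb-KO (1.64 to 2.34 CPM) than in hyperthyroid wild type (0.769 to 1.31 CPM). The difference was 0.61 ± 0.25 (limma adjusted p = 0.00171, 5.65% called; 0.0022 with no filter, 3.82% called), or 0.95 in edgeR (7.48% called). It fell short of 1.5-fold with the replicate block (0.58) and with TMM scaling (0.56). Cacna2d4 and Scn1a were not called by limma in any comparison, while edgeR called both between genotypes in hyperthyroid mice, Cacna2d4 lower in Thrb-KO (−0.73, adjusted p = 0.0233) and Scn1a higher (0.74, adjusted p = 0.0265). Cacna1s had 18, 19, 22 and 9 reads in hypothyroid wild type and 0, 2, 2 and 1 reads in hyperthyroid wild type, without overlap. With no filter its difference was −0.50 (adjusted p = 3.53e-06 in limma), short of 1.5-fold on a scale that understates the change at such levels. Scn4b stood at 4 to 29 reads, Cacng3 at 3 to 47 and Cacng1 at 0 to 5 reads per library. In the same fit the 3 genes stayed under 1.5-fold in each comparison, but only on that scale. Cacng3 differed by −0.47 between genotypes in hyperthyroid mice (limma adjusted p = 0.00399). It measured 0.445 to 1.06 CPM there in wild type and 0.0815 to 0.28 CPM in Thrb-KO, without overlap. Hypothyroid Thrb-KO, at 0.393 to 0.64 CPM, also lay above hyperthyroid Thrb-KO (−0.34 with T3, limma adjusted p = 0.0874).

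Beyond the genes chosen by symbol, a list of 50 genes for channel partners and calcium handling was counted, of which 46 could be tested. It includes the channel pore genes Scn2a1 and Nalcn, neither of which was called in any comparison. T3 in wild type raised 4 genes of the list (Ryr2, Camk2a, Atp2a1 and Fgf14). It lowered 5 (Atp2a3, Slc8a1, Atp2b4, Slc8a3 and Itpr3). Ryr2, a calcium release channel of the endoplasmic reticulum, went from 24.7 ± 8.53 to 74.6 ± 34.5 CPM (SD, n = 4 each; log2 difference 1.49, adjusted p = 0.000954). Atp2a3, a calcium pump of the same membrane, went from 62.1 ± 10.5 to 14.3 ± 1.87 CPM (−2.04, adjusted p = 2.22e-08). Slc8a1, a sodium-calcium exchanger, went from 143 ± 27.5 to 52.7 ± 18.4 CPM (−1.47, adjusted p = 0.000139).

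In Thrb-KO, T3 raised Camk2a (0.92) and Atp2a1 (0.67) and lowered Slc8a1 (−0.95), and no other gene of the list was called. The T3 response differed between genotypes for Atp2a3 (1.69), Slc8a3 (1.15) and Rem2 (0.83), of which Rem2 encodes a small G protein that inhibits calcium channels. Without T3, Atp2a3 (−1.76), Slc8a3 (−0.89) and Fgf12 (−0.74) were lower in Thrb-KO than in wild type, and with T3 Ryr2 was lower (−1.30) and Camk2g higher (0.60). The share of the list called was 19.57% with T3 in wild type (9.46% of all genes), 6.52% with T3 in Thrb-KO (1.01%), 6.52% for the difference between genotypes in the response (4.26%), 6.52% between genotypes without T3 (3.02%) and 4.35% with T3 (4.86%).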

How the data were processed

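The authors mapped single-end RNA-seq reads to RefSeq transcripts of mm9 with BBMap (the submitters' processing notes name STAR) and deposited CPM per transcript, with no filter on low values. The transcripts of a channel gene differed by at most 1.42-fold in mean CPM (Cacnb1), and whether counting used strand is not given in the sources used here. For TRβ-HAB binding the authors merged 3 HAB;BirA and 3 BirA libraries per tissue, pituitary libraries from pools of 12 pituitaries, and called peaks with SICER 1.1. Their deposited lists give the read count of each genotype in a peak, a p-value and FDR, and a ratio (fold over control) scaled by the authors. The BirA control libraries were taken as controls from their titles, since their genotype labels carry the HAB wording too. The deposited ATAC list gives 1776 peaks with an adjusted p-value and no direction. The other assays of the series were not analysed here.

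The transcript with the highest mean CPM was kept per gene. Genes above 1 CPM in all 18 libraries were fitted with limma 3.58.1 (lmFit and eBayes with trend, R 4.3.3) on log2(CPM + 1), as 4 group means, and calls needed an adjusted p under 0.05 and 1.5-fold. Intervals are 95% intervals of that fit. Whole reads were recovered from the CPM steps (at least 99.9931% of values per library were whole) for edgeR 4.0.16 and DESeq2 1.42.0. A count of 3 reads equals 0.0543 to 0.14 CPM. On these reads, with CPM above 1 in all libraries, edgeR called 1398 genes in wild type with T3. Replicate numbers paired the libraries by the rule used: samples with the same number correlated at 0.13 to 0.815 after removal of group means (25 of 25 pairs over 0.1). The own number was the best match in only 20 of 50 cases, and the median correlation was 0.529 within and −0.548 between the library sets of replicates 1 and 2 and 3 to 5. Where the block changes a call of a tested gene, its value is given. Libraries pool different mice, so p-values measure the spread between pools. All 39 genes were placed on mm9 with GENCODE, and DR4 sequences were read from that build (NCBIM37). The scripts were tested on simulated data. Alternatives were other filters, pseudocounts, scalings, tests, library sets, distances and mismatch limits. The edgeR fit of genes above 1 CPM in 4 libraries was added after the values were seen. Named genes were those called, those without overlap in wild type, the highest of each subfamily and those with a listed site. Single results of 2 of the 39 genes are not reported here, though counts over all members include them. The genes and lists were chosen with earlier results of these data known.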

Additional observations from a re-analysis of the deposited data

Results flagged for a closer look

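In 80 groups of libraries of 20 channel genes, 4 single libraries lay far from the rest of their group by Dixon's criterion, where chance gives about 1 group in 20. Scn10a measured 2.53 CPM in hyperthyroid Thrb-KO replicate 3, against 1.03 to 1.25 CPM in the other 4 libraries. Scn2b measured 27.6 CPM in hypothyroid wild type replicate 3, against 36.7 to 38.0 CPM. Cacng5 measured 4.01 CPM in hyperthyroid wild type replicate 3, against 4.67 to 4.76 CPM, and 2.05 CPM in hypothyroid Thrb-KO replicate 1, against 1.53 to 1.68 CPM.

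The response to T3 differed between genotypes, Thrb-KO minus wild type, by −0.79 for Cacna1a (limma adjusted p = 0.0019), by −1.22 for Scn10a (adjusted p = 0.0198) and by 0.92 for Cacng6 (adjusted p = 0.00906), all on the log2(CPM + 1) scale. The last 2 genes lay below 1 CPM in some libraries and came from the wider fit.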

How the results depend on the processing

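The counts of called genes stayed within 1.5 times under 12 other settings. This held for T3 in wild type and for both comparisons of Thrb-KO with wild type. Leaving out each library in turn gave 7 to 10 for T3 in wild type. It gave 5 to 6 for Thrb-KO in hypothyroid and 5 to 7 in hyperthyroid mice. Over all 13145 genes the same omissions gave 1176 to 1334, 331 to 440 and 614 to 705 calls. All 20 calls of channel genes kept their sign in both library sets. They were also made with the library set as a term, the replicate block, TMM scaling, edgeR and DESeq2. Replicates 1 and 2 alone added Cacna1e for T3 in wild type, where 1254 of all genes were called. They added Cacna1e, Cacnb3 and Scn2b between genotypes in hyperthyroid mice (721 called). Replicates 3 to 5 alone added Cacna2d1 for T3 in wild type (1508) and in both comparisons of genotypes. They also added Cacna1d in hypothyroid mice (628) and Cacna1f, Cacna1g and Scn8a in hyperthyroid mice (1114). With T3 in Thrb-KO the count went from 0 to 1 with a pseudocount of 0.25, no fold limit, replicates 1 and 2 only, edgeR or DESeq2, and it was 0 to 1 with 1 library left out (1 without hyperthyroid Thrb-KO replicate 5). The gene was Scn3b in each case. Over all genes the calls went from 133 to 151, 235, 199, 159 and 178 under these settings in that order. Without hyperthyroid Thrb-KO replicate 5 they were 118. For the difference between genotypes in the response to T3 the count was 1 in the main fit. It was 3 with the replicate block or the library set as a term (adding Cacna1d and Cacna1e). With CPM above 1 in 4 libraries or no filter it was 3 (adding Cacng6 and Scn10a), and with no fold limit 2 (adding Cacng5). With TMM scaling, edgeR or DESeq2 it was 2 (adding Cacna1d). In replicates 1 and 2 only it was 4 (adding Cacna1d, Cacna1e and Scn2b). Over all genes the calls went from 560 to 753 with the block, 769 with the library set, 718 with no fold limit and 576 with TMM scaling. They were 628 in edgeR, 732 in DESeq2, 782 in replicates 1 and 2, 742 with the lower filter and 697 with none. With 1 library left out the count of channel genes was 1 to 3. It was 3 without hyperthyroid wild type replicate 3 (adding Cacna1d and Cacna1h) and 2 without hypothyroid wild type replicate 3, hypothyroid Thrb-KO replicate 1 or hyperthyroid Thrb-KO replicates 2 or 5 (adding Cacng5). Cacna1a was called under each of these settings. The cause was not tested.

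Genes with a cortex site numbered 9 in the gene body (23.1%, against 20.5% of the tested genes placed). They numbered 23 within 100 kb (59.0%, against 62.9%) and 7 at an FDR under 1e-10 (17.9%, against 16.9%). Those with an ATAC peak numbered 11 within 100 kb (28.2%, against 18.2%) and 1 at that limit (2.56%, against 0.651%). With at most 1 mismatch, repeats were in 3 pituitary sites, 0 cortex sites and 1 ATAC peak (3.937%, 1.084% and 6.532% of all peaks). With at most 3 they were in 26, 6 and 4 (54.97%, 41.05% and 62.16%). Of 822 values of single genes under the alternatives, 0 reversed, 23 lost the call, 7 gained it and 792 did neither. TMM scaling moved the median of all genes by 0.094 for T3 in wild type and by −0.089 for Thrb-KO in hyperthyroid mice. The 3-read limit bounds Scn10a, Cacna1s, Cacng1 and Cacng3, whose lowest libraries hold 3 reads or fewer. Scn4b came near it, with 4 reads in its lowest library.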
